A study of Mus musculus with 25 samples.

Results

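Genes known as markers of eosinophils and basophils, 10 of the 19762 in the deposited count table, were followed through myeloid cells sorted from the mouse brain: Prg2, Prg3, Epx, Ear1, Ear2, Ear6, Alox15, Il5ra, Ccr3 and Prss34. Every row of the count table and of the scaled table with 1 of these symbols was taken. The genes were selected on their measured levels in the CD45high sort, so their difference between the gates is a description and carries no test. Tests were run on the D7 and D14 libraries of that gate. The selection used those same libraries, and a gene picked for a high level at D7 is more likely to be lower at D14. The p-values and ranks of members in these tests are therefore descriptions as well.

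Eosinophils are granulocytes that depend on interleukin-5 and carry cationic granule proteins, among them major basic protein, eosinophil peroxidase and, in the mouse, a large family of eosinophil-associated ribonucleases. Basophils are rarer granulocytes that carry the high-affinity IgE receptor and their own set of granule proteases. Both circulate in blood, and a healthy brain parenchyma holds few of either.

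All animals were 5XFAD mice, a transgenic strain that carries mutant human amyloid precursor protein and presenilin 1 genes and deposits amyloid in the brain. Myeloid cells were sorted as CD11b+CD45-low, the gate the submitters assign to microglia, or as CD11b+CD45-high, assigned to monocyte-derived macrophages, and both are called here CD45low and CD45high. The sample titles carry D7 or D14, which gives 3 CD45low D7, 3 CD45low D14, 3 CD45high D7 and 2 CD45high D14 libraries, 11 in all. Every sorted library came from a mouse given anti-PD-1, an antibody that blocks an inhibitory receptor of T cells, so no sorted library shows these genes without it. The labels give no age or sex for the sorted cells, do not say from which event D7 and D14 count, and do not say whether libraries of a group came from separate animals, so each p-value reflects the spread among libraries, which may be technical. The numbers 11, 12, 13, 5 and 6 each start the titles of a CD45low and a CD45high library, and the labels do not say whether these share an animal. The mice were perfused with PBS before dissection, per the labels' protocols. Another 14 libraries of whole choroid plexus, 5 after anti-PD-1, 5 after control IgG and 4 untreated, give a second tissue. The choroid plexus titles also carry M or F and a number whose meaning is not stated, and both vary within each group.

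The RNA was read at the 3′ end of transcripts, so a count does not grow with transcript length. The sorted libraries held 343439 to 974777 counts, and the CD45high ones 343439 to 579818. Levels are given as CPM, counts scaled to a common library total. A count of 0 in a sorted library allows a true level of up to 3 counts, or 3.08 to 8.74 CPM depending on the library, and such limits and the intervals below cover counting error only. The authors deposited the sorted cells in 2 tables: whole-number counts, and a signal scaled to a common depth from which the reads behind each value can be recovered. Per library, the scaled table contained 1.26 to 1.45 reads for each count, and both are given for each gene because they differ strongly for several of the 10. Markers of microglia, 8 genes in all, summed to between 7251 and 10536 CPM in CD45low and between 382 and 3116 CPM in CD45high. A single CD45low library stood apart, D7 replicate 3, in which 11 neutrophil markers summed to 5286 CPM against 759 to 1519 CPM in the other 5 CD45low libraries.

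RefSeq promoters (build GRCm38.p6) were matched by symbol for 8 of the 10 genes, with no entry used for Prg2 and Alox15. The 250 bases before the annotated start are shown for the 3 ribonuclease genes, compared below, and for Prg3 and Prss34, with a GATA match. These bases lie outside the annotated transcript, so their identity does not bear on how reads were assigned. Ear1 lies at chr14:43819640-43819889 on the minus strand, Ear2 at chr14:44102404-44102653 and Ear6 at chr14:51853518-51853767, both on the plus strand. Prg3 lies at chr2:84987965-84988214 and Prss34 at chr17:25298144-25298393, both on the plus strand. Capitals mark GATAA, the core of the motif of GATA factors, or TTGCNNAA, the motif of C/EBP factors, read on either strand.
Ear1: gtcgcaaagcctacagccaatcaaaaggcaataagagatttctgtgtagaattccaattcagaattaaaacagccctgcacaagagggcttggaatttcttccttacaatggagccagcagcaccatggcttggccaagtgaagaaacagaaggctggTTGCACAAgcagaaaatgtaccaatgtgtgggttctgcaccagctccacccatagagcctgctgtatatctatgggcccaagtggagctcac
Ear2: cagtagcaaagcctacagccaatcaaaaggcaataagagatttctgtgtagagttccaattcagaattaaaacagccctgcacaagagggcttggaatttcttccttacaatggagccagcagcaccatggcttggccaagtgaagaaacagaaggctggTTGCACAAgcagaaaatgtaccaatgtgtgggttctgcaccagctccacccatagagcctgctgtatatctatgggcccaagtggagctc
Ear6: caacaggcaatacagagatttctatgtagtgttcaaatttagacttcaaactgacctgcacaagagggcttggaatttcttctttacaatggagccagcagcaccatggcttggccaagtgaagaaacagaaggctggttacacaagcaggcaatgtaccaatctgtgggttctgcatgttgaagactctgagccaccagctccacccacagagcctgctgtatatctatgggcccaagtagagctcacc
Prg3: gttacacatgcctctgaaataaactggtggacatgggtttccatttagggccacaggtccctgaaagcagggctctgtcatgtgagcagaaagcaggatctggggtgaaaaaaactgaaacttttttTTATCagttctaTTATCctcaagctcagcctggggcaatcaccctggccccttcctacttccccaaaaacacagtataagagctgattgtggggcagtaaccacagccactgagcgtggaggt
Prss34: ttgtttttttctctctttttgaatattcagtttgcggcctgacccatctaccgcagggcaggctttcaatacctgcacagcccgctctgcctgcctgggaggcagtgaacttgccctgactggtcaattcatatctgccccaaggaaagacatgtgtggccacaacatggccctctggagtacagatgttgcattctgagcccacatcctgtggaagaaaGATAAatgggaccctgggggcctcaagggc

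The Ear1 and Ear2 windows were 97.6% identical in a global alignment, with a shared run of 197 bases, whereas Ear6 was 78.2% identical to Ear1 and 77.7% identical to Ear2. Searched as GATAA and its reverse complement TTATC, 4 of the 8 windows held a match: Prg3 with 2, at 123 and 111 bases before the start, Il5ra with 1 at 73, Ccr3 with 1 at 29 and Prss34 with 1 at 30. Of 32851 RefSeq promoters of the same length, 22.6% held that motif. The C/EBP motif, searched as TTGCNNAA and TTNNGCAA, stood in Ear1 at 92 and in Ear2 at 90 bases before the start, and in 9.56% of all promoters. The 2 motifs did not overlap in any of the 8 windows. These letters are a description and no binding was measured.

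The eosinophil granule protein genes were present in the CD45high gate and close to 0 in CD45low. Prg2, which encodes major basic protein, had 100, 96 and 89 counts in the CD45high D7 libraries and 16 and 40 at D14, against 1, 2 and 0 in CD45low D7 and 0 in each CD45low D14 library. In the scaled table its signal was 8331, 8215 and 6004 at D7 and 784 and 2191 at D14 in CD45high, and it was at most 30.4 in any CD45low library. Every CD45high library lay above every CD45low library in both tables, and every D7 library lay above both D14 libraries. Pooled over libraries, the CD45high level was 292 times that in CD45low, with a 95% counting interval of 99.2 to 1425.

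Epx, eosinophil peroxidase, followed the same order. Its counts were 34, 97 and 64 at CD45high D7 and 10 and 17 at CD45high D14, with 1 count in 1 CD45low library and 0 in the other 5. The scaled signal was 500, 1218 and 626 at D7 and 86.2 and 168 at D14 in CD45high. Prg3, the homologue of major basic protein, was far lower: 5, 6 and 1 counts at CD45high D7, 0 and 0 at D14, and a total of 1 count over the CD45low libraries. The scaled table gave Prg3 a signal of 206, 289 and 154 at CD45high D7 and 51.7 and 69.1 at D14, all above the highest CD45low value of 15.2. Prg3 therefore separated the gates in the scaled table but not in the count table.

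The ribonuclease genes Ear1, Ear2 and Ear6 encode secreted granule RNases. Ear1 and Ear6 are in the eosinophil marker set summed below, and Ear2 is not. Ear1 had 74, 106 and 74 counts at CD45high D7, 23 and 41 at CD45high D14, and at most 2 in a CD45low library. Ear6 had 7, 26 and 41 counts at CD45high D7, 0 and 1 at D14, and 0 in all 6 CD45low libraries, and its scaled signal was 515, 1344 and 1060 at D7 against 25.9 and 158 at D14. Ear2 had 45, 51 and 65 counts at CD45high D7 and 48 and 30 at D14, with at most 2 in CD45low. The D7 and D14 counts of Ear2 overlapped, although relative to library size the D7 libraries, at 149, 151 and 149 CPM, all lay above the D14 libraries at 88.1 and 62.3 CPM.

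Alox15 encodes the 12/15-lipoxygenase, which oxygenates arachidonic and linoleic acid and is abundant in mouse eosinophils and in some resident macrophages. It had 84, 132 and 97 counts at CD45high D7 and 36 and 29 at D14. The highest CD45low library had more of it than of any eosinophil granule gene, with 10 counts in D7 replicate 3 and 0 to 3 in the other 5 CD45low libraries. The scaled signal was 1266, 1696 and 935 at CD45high D7, 327 and 286 at D14, and 87.6 in that CD45low library. The CD45high level was 54.0 times that in CD45low (95% counting interval 33.7 to 92.1), the smallest such ratio among the 5 genes that separated the gates in the count table. As a description, edgeR's log2 difference between the gates for Alox15 was 5.33, and 6.39 without CD45low D7 replicate 3.

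The 2 receptor genes did not follow the granule genes. Il5ra, the interleukin-5 receptor subunit that gives eosinophils their specificity for that cytokine, had 0 counts and 0 signal in all 11 sorted libraries, which allows up to 8.74 CPM in the shallowest of them. Ccr3, the eotaxin receptor, had 10, 0 and 4 counts at CD45high D7, 0 and 1 at D14, and up to 3 in CD45low. In the reads behind the scaled table Ccr3 had 12, 0 and 4 at CD45high D7, 0 and 3 at D14, and 2, 11 and 8 at CD45low D7, so the gates overlapped and the ratio of CD45high to CD45low was 1.70 with an interval of 0.893 to 3.17.

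**Figure D1:**
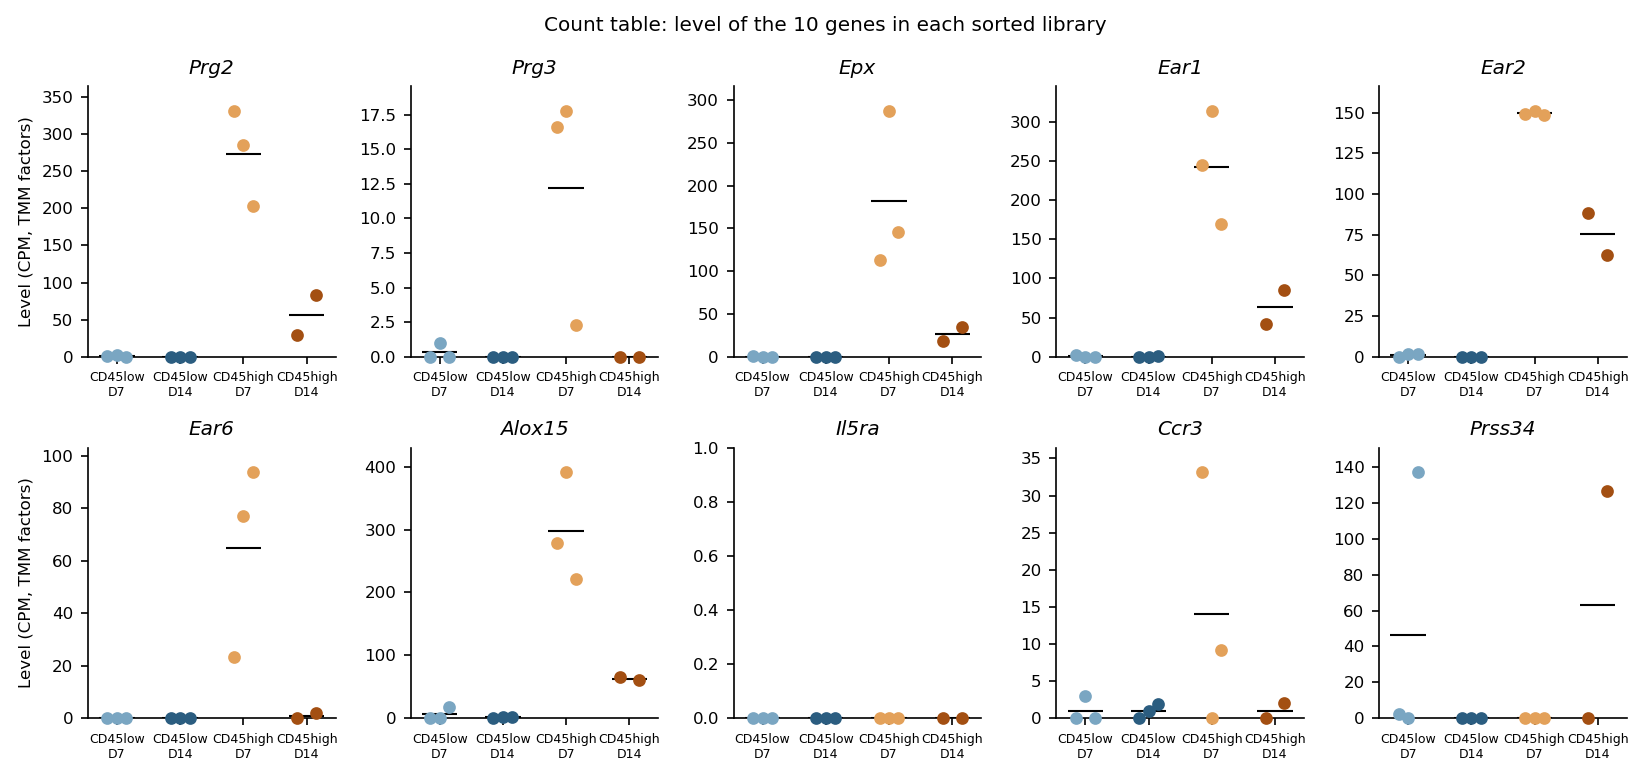
Level of each of the 10 genes in the count table, in CPM on a linear axis from 0, with 1 point per library and a line at the group mean for CD45low D7, CD45low D14, CD45high D7 and CD45high D14. Prg2, Epx, Ear1, Ear2 and Alox15 have all 5 CD45high libraries above all 6 CD45low libraries, Il5ra is at 0 throughout, and Prss34 stands up in 1 CD45low and 1 CD45high library.

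**Figure D2:**
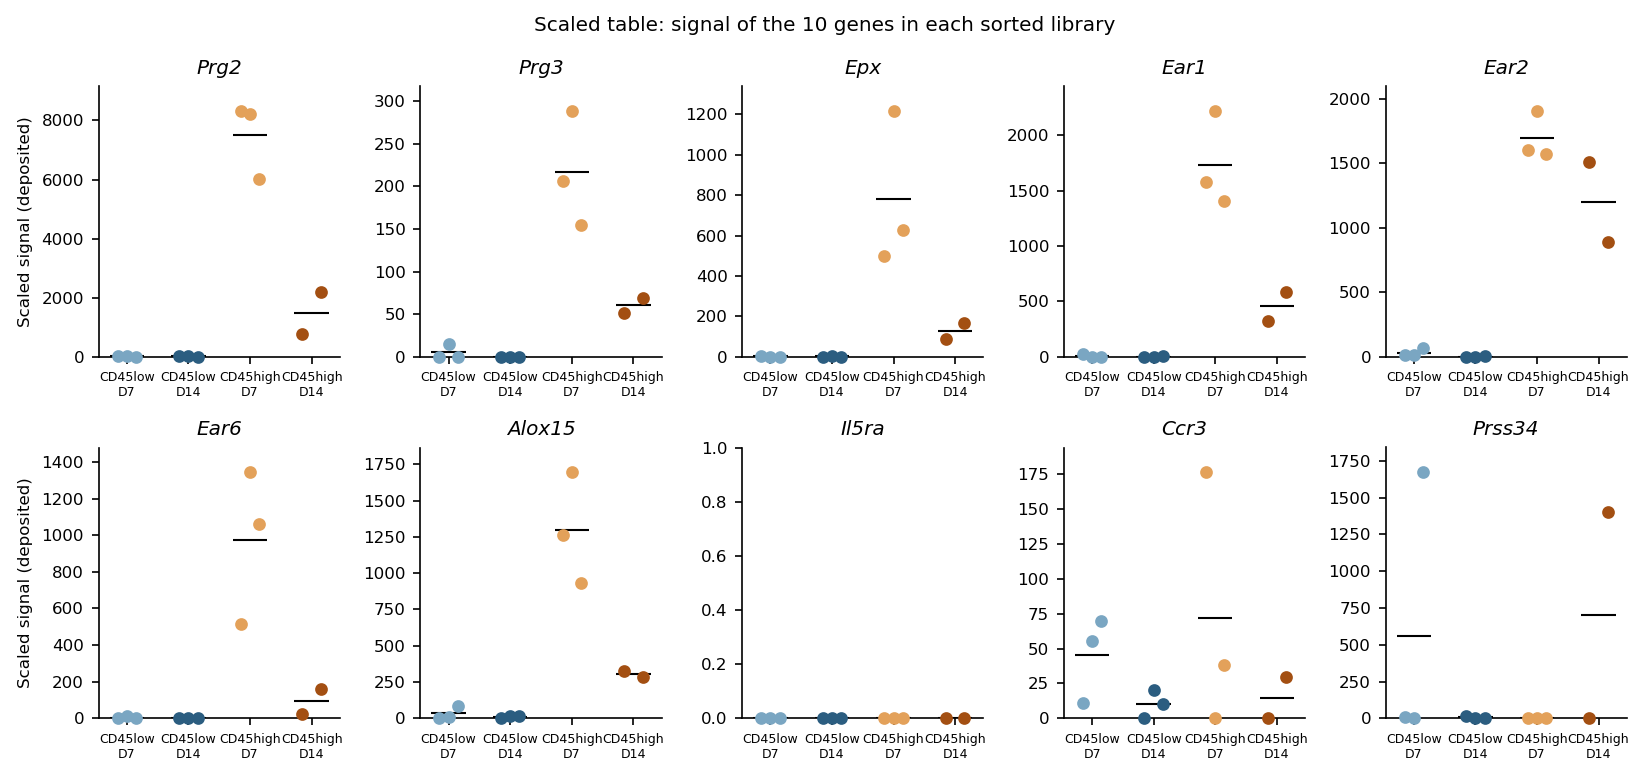
The same genes and libraries in the authors' scaled table, as deposited signal on a linear axis from 0. Prg3 and Ear6 join the genes whose CD45high libraries all lie above CD45low, and the signal of Ear2 at D14, 1508 and 888, comes closer to its D7 values of 1604, 1909 and 1571.

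In all, 5 of the 10 genes had every CD45high library above every CD45low library in the count table and 7 did so in the scaled table. Among all 9058 genes tested in the count table, 18.8% were separated in that direction. Since the genes were chosen for this difference, nothing is read from that count. In group means the order of levels at CD45high D7 was Alox15 at 297 ± 86.3 CPM (SD, n = 3), Prg2 at 273 ± 64.8, Ear1 at 243 ± 72.6, Epx at 182 ± 92.8, Ear2 at 150 ± 1.36 and Ear6 at 64.7 ± 36.9, with Ccr3 and Prg3 at 14.1 and 12.2 CPM. From Alox15 down to Ear2, neighbours in that order differed by less than the larger of their SDs. The order depended on the table, as the scaled signal put Prg2 first at 7517 ± 1311 and Ear1 next at 1735 ± 431, with Ear2 at 1695 ± 186, Alox15 at 1299 ± 382, Ear6 at 973 ± 421 and Epx at 782 ± 383. In bulk libraries fewer cells of a type and less RNA per cell cannot be told apart.

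The difference between the tables was specific to certain genes. Epx and Alox15 had nearly the same number of reads in both, 1.00 to 1.02 and 1.00 to 1.06 reads per count in the CD45high libraries. Prg2 had 566, 654 and 623 reads at D7 and 91 and 222 at D14, or 5.55 to 7.00 reads per count, and Ear1 had 1.44 to 1.97. Ear2 had 109, 152 and 163 reads at D7 and 175 and 90 at D14, 2.42 to 3.65 per count.

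For the ribonucleases the extra reads matched other rows of the scaled table. In each of the 11 libraries the reads of Ear2 beyond its counts equalled the reads given to Ear3 and the reads given to Ear12, which were 64, 101 and 98 at CD45high D7 and 127 and 60 at D14. The reads of Ear6 beyond its counts equalled those given to Ear7 in each library, 28, 81 and 69 at CD45high D7 and 3 and 15 at D14. Ear3, Ear4, Ear7, Ear12 and Ear14 have rows in the scaled table and none in the count table used here. Of 4430 genes with at least 50 more reads than counts, 167, or 3.77%, had a difference equal to another row in every library, and no row matched that of Prg2 or Ear1. The GENCODE M21 transcripts of Ear1 and Ear2 were 96.1% identical, those of Ear1 and Ear6 88.7%, and those of Ear2 and Ear10, a further ribonuclease, 89.0% with a shared run of 185 bases. The level of any single Ear gene is therefore uncertain, in either table. Ear10 itself had 8, 12 and 9 counts at CD45high D7, 6 and 4 at D14, and 0 in CD45low.

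**Figure D3:**
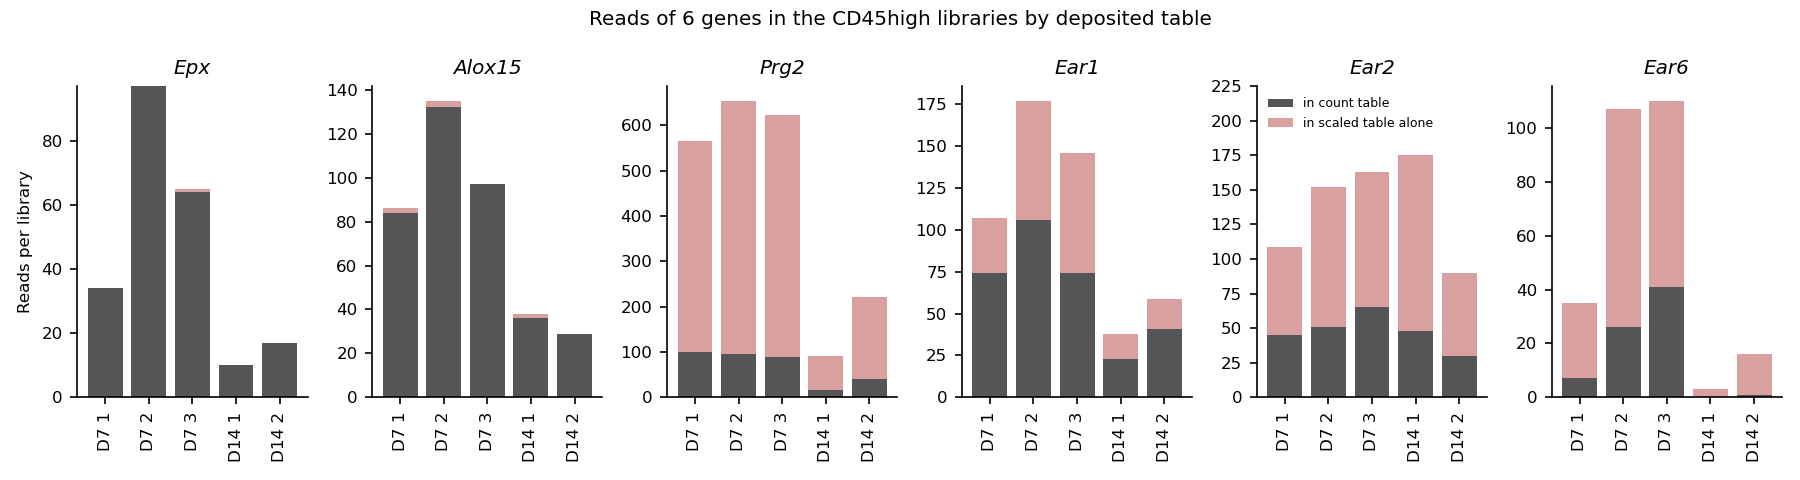
Reads of 6 genes in the 5 CD45high libraries on a linear axis from 0, each bar divided into reads present in the count table and reads present in the scaled table alone. The scaled table adds almost nothing for Epx and Alox15, most of the reads for Prg2, Ear2 and Ear6, and leaves Ear2 highest, at 175 reads, in D14 replicate 1. The bars are not scaled to depth. That library is the deepest of the CD45high gate, at 805567 reads, and its scaled Ear2 signal of 1508 lay below every D7 value.

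Between D7 and D14 of the CD45high gate, no member passed the test in the count table, and 2 passed it on recovered reads. Of the 7 members that passed the expression filter in the count table, 6 (Prg2, Epx, Ear1, Ear2, Ear6 and Alox15) had both D14 libraries below all 3 D7 libraries in CPM, where 12.7% of the 9058 tested genes were separated in that direction. The exception among the 7 was Prss34. Prg3, Ccr3 and Il5ra did not pass the filter. A member that passed through its D7 counts had more room to be lower at D14 than higher, so that count is a description.

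With edgeR's quasi-likelihood test and Benjamini-Hochberg adjustment over 9058 genes, 0 of the 7 members passed an adjusted p of 0.05, where 0.011% of all genes passed, a single gene that was higher at D14, and 0% passed with a lower level. The unadjusted p was under 0.05 for all 7 members, 6 of them lower at D14 and Prss34 not, where it was so for 10.5% of all genes in either direction and for 4.56% with a lower level. Nothing is read from that count, since a gene such as Ear6 or Prss34 passes the filter only through the libraries where it is high. Prg2 went from 273 ± 64.8 CPM (SD, n = 3) to 56.2 ± 37.9 CPM (n = 2), a log2 fold change of -2.29 ± 0.40 (SE) with an edgeR adjusted p of 0.067, the third smallest p of all genes. The estimate depended on the D14 library used, at -1.70 without replicate 1 and -3.20 without replicate 2. Epx went from 182 ± 92.8 to 26.8 ± 12.0 CPM, -2.77 ± 0.50 on the log2 scale with an edgeR adjusted p of 0.067. Both missed the threshold of 0.05, and both were selected on levels in these same libraries, so these values are descriptions.

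Ear1, at 243 ± 72.6 CPM at D7 and 63.7 ± 30.3 at D14, had a log2 fold change of -1.93 ± 0.40, and Alox15, at 297 ± 86.3 and 63.1 ± 4.19 CPM, had -2.22 ± 0.47, each with an edgeR adjusted p of 0.0904. Ear6 had 74 counts at D7 and 1 at D14, a pooled ratio of 70.6 with a counting interval of 12.3 to 2824, and the same edgeR adjusted p of 0.0904. Ear2 differed least, with a log2 fold change of -0.99 ± 0.36 and an edgeR adjusted p of 0.363. Over all 9058 tested genes the median log2 fold change was 0.01. DESeq2, on the same counts, called Prg2, Epx and Ear1 among 18 genes.

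With recovered reads in place of counts, Prg2 and Ear6 passed the test with lower levels at D14. The edgeR test called 5 of 10390 genes there (0.0481%), and the 2 called with a lower level (0.0192%) were these members. Prg2 had a log2 fold change of -2.47 ± 0.35 and an edgeR adjusted p of 0.0127, the smallest p of all genes, and Ear6 had -3.57 ± 0.60 with an edgeR adjusted p of 0.0473. Most of the Ear6 reads at D7 are those also given to Ear7, and Ear6 was near 0 at D14, so its estimate is not that of 1 gene alone. Ear6 also passed the filter only through the D7 libraries where it is high, so its call is a description. Prg2 was selected on its level in these CD45high libraries, with 1843 reads at D7 and 313 at D14. Its p and rank are therefore a description too. Of the 8 members tested on reads, 7 had both D14 libraries below the D7 libraries, against 13.4% of all genes. As with the counts, that number is a description. Epx stood at an edgeR adjusted p of 0.0501, Ear1 at 0.0601 and Alox15 at 0.110. Prg3, with 14, 23 and 16 reads at D7 and 6 and 7 at D14, had a log2 fold change of -1.95 ± 0.78 with an edgeR adjusted p of 0.409. Ear2 was at -0.61 ± 0.32 with an edgeR adjusted p of 0.516, on reads that it shares with Ear3 and Ear12.

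**Figure D4:**
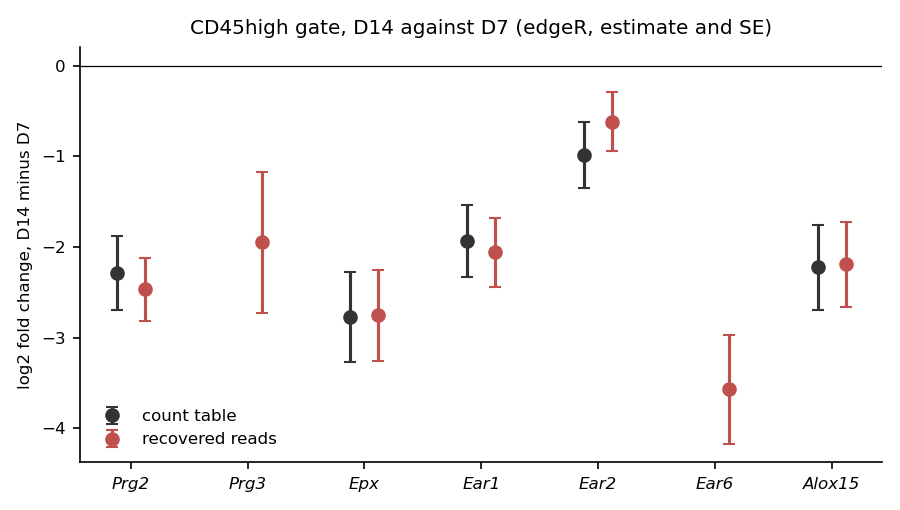
Log2 fold change from CD45high D7 (n = 3) to CD45high D14 (n = 2) by edgeR, with bars of 1 SE, for the count table and for the reads recovered from the scaled table. All estimates drawn lie below 0, Ear2 lies nearest to 0 in both tables, and Ear6 is drawn from the reads alone because it had 1 count at D14. Prss34 was tested in both tables and was not lower at D14, and it is not drawn. Prg3 was tested on reads alone.

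Ear2 was set against Ear1, its closest relative among the members, within each library. The ratio of Ear2 to Ear1 counts was 0.608, 0.481 and 0.878 at CD45high D7 and 2.09 and 0.732 at D14, so the groups overlapped, and an exact two-sided permutation test over the 5 libraries gave p = 0.3. In recovered reads the ratio was 1.02, 0.859 and 1.12 at D7 and 4.61 and 1.53 at D14, without overlap. Most of these Ear2 reads are those also given to Ear3 and Ear12, so this is not a ratio between single genes. The same exact permutation test gave p = 0.1, the smallest that 10 splits allow. With so few libraries this test could not pass the threshold used for edgeR, whatever the values, so nothing is read from either p-value. Relative to Ear1, Ear2 was highest in D14 replicate 1, where Ear1, Prg2, Epx and Ear6 were at their lowest of the CD45high libraries.

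Markers of some other cell types moved between the same libraries, and those of others overlapped. All 10 tested neutrophil markers had a negative estimate at D14, with a median log2 fold change of -0.63, and none passed the test in edgeR. The 11 neutrophil markers in the count table summed to 21081 to 23084 CPM at CD45high D7 and 12888 to 15135 CPM at D14. The 8 eosinophil markers in the table, of which 7 are members and Il5ra is at 0, summed to 638 to 1014 CPM at D7 and 129 to 237 at D14. The 7 markers of Ly6C-low monocytes summed to 1989 to 2463 CPM at D7 and 1829 to 2283 at D14, which overlap. The 6 granulocyte progenitor markers summed to 358 to 581 CPM at D7 and 231 to 666 at D14, which also overlap. Of the 5 tested progenitor markers 3 had a negative estimate, with a median log2 fold change of -0.15. The 7 monocyte markers summed to 5194 to 6312 CPM at D7 and 4933 to 5054 at D14, and the 7 markers of large peritoneal macrophages, a resident population that also expresses Alox15, to 308 to 501 and 244 to 270 CPM, both without overlap. Gata6, which defines those macrophages, was at 0 in all sorted libraries. The part of these differences in those of the eosinophil genes was not tested.

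Siglecf, the lectin used to identify eosinophils, is listed under the symbol Siglec5 and was matched to Siglecf by its transcript in the RefSeq table, and it did not follow the members. It had 82.9, 32.6 and 13.7 CPM at CD45high D7 and 38.6 and 29.1 at D14, against 41.8 to 87.0 CPM in CD45low, and edgeR called it lower in CD45high (log2 fold change -0.80 ± 0.33, adjusted p 0.0457), a call that was lost in 12 of 16 alternatives, with adjusted p up to 0.15. Within CD45high its order followed that of the microglia markers, which summed to 3116, 1927 and 382 CPM at D7 and 2237 and 1783 at D14. Among 14 tested genes of a wider eosinophil list that holds no member, 9 were called higher in CD45high and 4 lower, where 26.8% and 26.4% of all genes were. The higher ones were Ear10, Cd244, Emr4, Csf2rb, Csf2ra, Thbs1, Cd24a, Retnlg and F5, the lower ones Siglec5, Emr1, Ltc4s and Csf2rb2, and 2 of the lower calls, Siglec5 and Csf2rb2, were lost under some alternatives. Csf2rb is the shared beta chain of the receptors for interleukin-3, interleukin-5 and GM-CSF, and stood at 755 ± 84.8 CPM at CD45high D7 against 307 ± 75.3 at CD45low D7. Emr4, an adhesion receptor also known from macrophages, had 79.5 ± 24.8 CPM at CD45high D7, 153 ± 72.2 at D14 and 1.31 ± 0.47 at CD45low D7. Ltc4s, leukotriene C4 synthase, went the other way, at 96.0 ± 16.3 CPM in CD45low D7 and 9.02 ± 6.32 in CD45high D7. None of these 14 genes passed the test between D7 and D14 in edgeR, and their median log2 fold change was 0.10.

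Of 7 tested transcription factor genes linked to eosinophils, Cebpe and Spi1 were called higher in CD45high and Cebpa and Irf8 lower. The shares over all genes were 26.8% higher and 26.4% lower. Cebpe, which terminal granulocyte differentiation requires, had 318 ± 12.1 CPM at CD45high D7 and 184 ± 47.6 at D14, an edgeR log2 fold change of -0.79 ± 0.56 with an adjusted p of 0.645. Zfpm1, a cofactor of GATA factors, had 0 counts in all sorted libraries but 25 to 100 recovered reads in CD45low and 3 to 18 in CD45high. Gata1, on which mouse eosinophil development depends, had 4, 4 and 0 counts at CD45high D7, 0 in both D14 libraries, and a total of 2 over the CD45low libraries. Among 11 genes of ligands that recruit or sustain eosinophils, Ccl11, Il5, Il3 and Csf2 were at 0 in every sorted library. Ccl24, eotaxin-2, was higher in CD45low, at 40.6 ± 21.4 CPM in D7 against 11.7 ± 11.6 in CD45high D7, and Ccl5 was higher in CD45high.

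In a list of lipoxygenases and other genes of lipid oxidation and lipid signalling, 7 of 10 tested genes were called higher in CD45high and 3 lower. Over all genes, 26.8% were called higher and 26.4% lower. Alox5, the 5-lipoxygenase, had 357 ± 19.0 CPM at CD45high D7 and 309 ± 14.3 at D14, and its activating protein gene Alox5ap had 2105 ± 105 and 1499 ± 93.7 CPM. The higher ones were Alox5, Alox5ap, Lta4h, Gpx4, Ptgs2, Pparg and Fpr2, the lower ones Ltc4s, Ptgs1 and Pla2g4a, and Gpr31b was at 0 throughout. None of the 10 passed the D14 against D7 test in edgeR, and their median log2 fold change was -0.12.

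Prss34, a serine protease that marks mouse basophils, had a pattern unlike the other members. It had 74 counts in CD45low D7 replicate 3 and 61 in CD45high D14 replicate 2, 2 in CD45low D7 replicate 1 and 0 in the other 8 sorted libraries. The scaled signal was 1674 and 1401 in the first pair. Neither the gate nor D7 against D14 separated the libraries. The edgeR test between D7 and D14 gave an adjusted p of 0.395. Within CD45high only D14 replicate 2 had any count, so nothing is read from that p.

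Further basophil genes were present in the same pair of libraries. Mcpt8, the basophil granule protease, had 57 recovered reads in CD45low D7 replicate 3 and 94 in CD45high D14 replicate 2, and 0 or 1 in each of the other 9. The count table holds 1 count of Mcpt8 in each of that pair. Fcer1a, the IgE-binding chain of the high-affinity IgE receptor, had 20 and 8 reads, Cpa3, a carboxypeptidase of mast cells and basophils, 11 and 15, and Cd200r3, an activating receptor, 6 and 5, while no other library had more than 1 read of any of these. Ms4a2, the beta chain of the IgE receptor, had 4 reads in the CD45low library and 0 in the CD45high one. Gata2, a transcription factor of basophils and mast cells, had 7 and 5 counts there and 0 to 3 elsewhere. Of 6 tested genes of a wider basophil list, edgeR called Hdc, Ptgs2, Lilrb4, Cd69 and Aqp9 higher in CD45high and Csf1 lower. Over all genes, 26.8% were called higher and 26.4% lower. Other granulocytes or macrophages also express the higher ones. The Csf1 call was lost in 1 of 16 alternatives and was opposite in sign to its D7 means of 45.2 CPM in CD45high and 37.3 in CD45low. None of the 6 was called between D7 and D14, where their median log2 fold change was 0.07. Il13 was at 0 in all sorted libraries. The mast cell genes Tpsb2, Tpsab1, Mcpt4, Mrgprb1 and Mrgprb2 were at 0 in all sorted libraries. Kit, the stem cell factor receptor of mast cells and progenitors, had 2, 5 and 4 counts at CD45high D7, 9 and 6 at D14 and at most 3 in a CD45low library, and Cma1, mast cell chymase, had at most 4 counts in any library. The CD45low library is the one with the high neutrophil markers, and the basophil markers summed to 204 CPM in it, 174 CPM in CD45high D14 replicate 2 and at most 9.95 CPM in the rest.

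**Figure D5:**
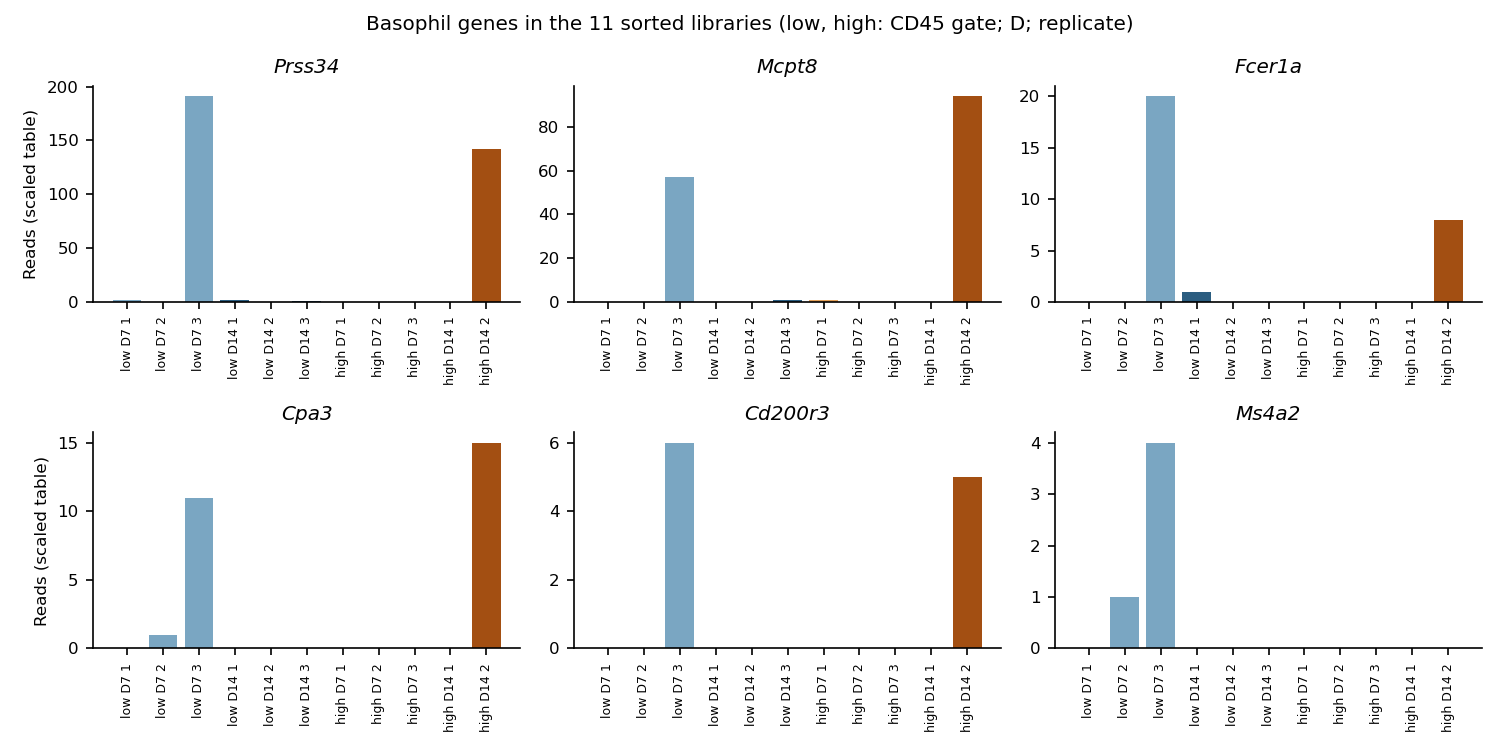
Recovered reads of 6 basophil genes in each of the 11 sorted libraries on linear axes from 0. Prss34, Mcpt8, Fcer1a, Cpa3 and Cd200r3 stand out in CD45low D7 replicate 3 and CD45high D14 replicate 2, with Prss34 at 191 and 142 reads, and have at most 2 reads in each of the other 9 libraries.

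Lrg1, Chil1, Trem3, 1100001G20Rik and Padi4 had the profiles most like that of the summed member counts over the 11 sorted libraries, by the root mean square difference of centred log2 CPM among 8916 genes. Lrg1, a leucine-rich glycoprotein, was nearest at 0.46, with 1237, 1743 and 908 CPM at CD45high D7, 527 and 658 at D14, and 206 CPM in CD45low D7 replicate 3 against at most 17.1 in the other CD45low libraries. Chil1, a chitinase-like protein, followed at 0.55. The summed members likewise stood at 157 CPM in that CD45low library, 137 CPM of it from Prss34, and at 0 to 9.06 CPM in the other 5. With recovered reads, 3 of these 5 genes (Lrg1, Chil1 and 1100001G20Rik) were again among the nearest 5.

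In the choroid plexus the 10 genes were near absent. Prg2, Prg3, Ear1, Ear2, Ear6 and Il5ra had 0 counts in all 14 libraries, each of which allows up to 1.63 to 3.22 CPM. Epx had 1 count in all, Alox15 2, Ccr3 2 and Prss34 3, a total of 8 counts over 931461 to 1840072 counts per library, so no difference between the antibody groups was detectable at this depth.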

How the data were processed

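The series holds 3′-end mRNA libraries of 11 sorted myeloid samples and 14 choroid plexus samples. The submitters' processing notes name Bowtie2, HOMER and the build mm9, with versions and annotation not given in the sources used here. The authors deposited whole-number counts per gene, not normalized, and a scaled signal per gene, in which 100% of the values came out as whole reads within 0.05 reads per library, so the reads were recovered. Sorted libraries held 343439 to 974777 counts and 479616 to 1252215 reads.

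Counts of all 9058 genes past filterByExpr were fitted with edgeR 4.0.16 (R 4.3.3, limma 3.58.1) with TMM factors and a mean for each of 4 sorted groups, which left 7 residual degrees of freedom, and called at a Benjamini-Hochberg adjusted p under 0.05. CPM values use TMM factors from a separate run of the filter, which kept a somewhat different set of genes. Standard errors are the fold change over the root of F. On the recovered reads, as an alternative count test, edgeR called 5 of 10390 genes between D7 and D14. Other alternatives were RLE factors, DESeq2 1.42.0, no filter, a replicate block and leaving out each library. Ratios of pooled counts carry exact 95% counting intervals, with 3 counts over the group where it was at 0.

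The members and gene lists were chosen with earlier results of these data known. The rule for named genes took all members, the 5 genes with the nearest profile, and list genes past the test or at 0. Which of the list genes are given with values, such as Csf2rb and Emr4, was chosen after their values were seen. Genes were matched to RefSeq by symbol, since no genome of mm9 was used.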

Additional observations from a re-analysis of the deposited data

Results flagged for a closer look

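In the choroid plexus 3 values stood apart from the rest of their group of 5 libraries by the gap between the extreme library and its neighbour. Epx had 1 count in 1 library after control IgG, Ccr3 had 2 counts in 1 library after anti-PD-1, and Prss34 had 1 count in 1 library after anti-PD-1, with 0 in the other 4 libraries of each group. For continuous values chance gives such a gap in about 1 in 20 groups, but where 4 libraries are at 0 any count in the fifth gives it, so that rate does not apply here. Each rests on 1 or 2 counts, below the 3 counts that a value of 0 allows. They are 3 of the 5 gene and group combinations in which any count was seen.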

How the results depend on the processing

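The number of genes called between D7 and D14 in CD45high was 1 with the main settings and depended on the settings: 5 on recovered reads, 0 with RLE factors, 18 with DESeq2, 114 without the expression filter and 0 to 13 when 1 library was left out. Without the filter Prg2, Epx, Ear1, Ear6, Alox15 and Prss34 were among those called, and DESeq2 gave no adjusted p for Ear6 and Prss34. Without CD45low D7 replicate 3 edgeR called 6 genes, among them Prg2 (adjusted p 0.0319), Epx (0.0349) and Alox15 (0.0198), without CD45low D14 replicate 3 it called 6 with Prg2 and Epx, and without CD45high D7 replicate 1 it called 13 with Ear6 and Epx. Each estimate for Prg2, Epx, Ear1, Ear2, Ear6 and Alox15 stayed below 0 under all alternatives, 19 of the 95 passing the threshold that the main fit missed. Which D14 library was left out moved the estimates most: without replicate 1 the log2 fold change was -1.70 for Prg2, -2.36 for Epx, -1.50 for Ear1 and -4.86 for Ear6, and without replicate 2 it was -3.20, -3.30, -2.51 and -8.54, the last against 0 counts. The adjusted p ran from 4.7e-06 to 0.512 for Prg2, 5.4e-06 to 0.512 for Epx, 0.000281 to 0.592 for Ear1 and 0.288 to 0.731 for Ear2.

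Same-numbered libraries did not deviate together (r from 0.014 to 0.061 for the number that starts the titles, 0.013 and -0.009 for the PD number). The main fit therefore did not take the numbers as pairs. These correlations do not settle whether same-numbered libraries share an animal, and if they do, the main fit ignores it. With a replicate block of the PD number edgeR called 4 genes, among them Prg2 and Epx at an adjusted p of 0.0369. The labels do not say whether the PD number links a D7 with a D14 library, so nothing is read from that fit. The gate comparison called 4822 genes, 4403 with a replicate block of the title number and 4356 to 4871 with 1 library left out. The CD45high D14 group has 2 libraries. Most granule gene values in CD45low are 0 to 2 counts, so the size of their gate ratios is limited by counting.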
